A study of Mus musculus with 8 samples.

Results

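The genes described here copy DNA and supply its building blocks: 42 genes that encode the replication machinery, the enzymes that make deoxynucleotides, and the chromatin and repair factors that travel with the replication fork. They were chosen by gene symbol, with earlier results of these data known, so their contrast with all genes is a description. Each of the 42 was found among the 37982 genes of the authors' table. The tissue was ventricle without atria, taken on postnatal day 7 from C57BL/6 mice, and its total RNA was sequenced. The labels give 8 samples in 3 genotype groups, with 2 wild type, 3 double mutant and 3 triple mutant samples. As known from the study, the double mutants carried altered alleles of Mkl2 (a partner of serum response factor) and Myh7 (the beta myosin heavy chain), and the triple mutants carried both of these and an altered Nkx2-5 (a homeodomain factor of heart muscle). The altered Mkl2 and Myh7 alleles are thus shared by both mutant groups. The labels give neither the sex of the pups, nor how many animals made up a library, nor whether litters were shared. Any spread between libraries behind the p-values may thus be technical.

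DNA replication starts when the origin recognition complex, Cdc6 and Cdt1 load the Mcm2 to Mcm7 helicase onto DNA, a step called licensing. The helicase is then activated, primase and the polymerases copy both strands, and a sliding clamp with its loader holds the polymerases in place. Most of these genes are transcribed as cells enter S phase, many of them under the control of E2F factors. In the mouse heart, cardiomyocytes make a last round of DNA synthesis in the first days after birth, while endothelial cells, fibroblasts and blood-derived cells can go on dividing.

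The values are FPKM (fragments counted per transcript length and library size), with 1 value per gene and group, so no spread between samples can be given and the read depth is unknown. Differences were called from the authors' Cuffdiff test at a q-value under 0.05. The standard errors printed are those implied by its statistic (the log2 fold change divided by the statistic). Of the 42 genes, 39 were tested in each comparison. Pole2, a subunit of polymerase epsilon, had an FPKM of only 0.0325 in wild type, 0.150 in double mutants and 0.0556 in triple mutants, too low for the authors' test. Cdt1 and Gins2 are listed at 0 in every group, marked as having exceeded the fragment limit, so their levels were not measured. Both lie in 1 stretch that the file gives for 160 genes (mm9 chromosome 8, 122434260 to 126869624). In ventricle pieces, fewer cells in S phase and less RNA of these genes per cell cannot be told apart.

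The tested genes were expressed at low to middling levels, with a median FPKM of 8.34 in wild type, 7.29 in double mutants and 8.85 in triple mutants. The highest in wild type was Rrm2, the small subunit of ribonucleotide reductase, at an FPKM of 49.98, above 90.5% of all genes tested. The lowest was Gmnn, the licensing inhibitor geminin, at 2.59, above 13.4% of them. Summed over the 40 genes with an estimate, FPKM was 461 in wild type, 372 in double mutants and 492 in triple mutants. Across the 9 roles into which the genes were grouped, the summed FPKM of the triple mutant was 1.18 to 1.47 times that of the double mutant. The double mutant sums were 0.656 to 0.933 times those of wild type, and the triple mutant sums 0.944 to 1.21 times.

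**Figure D1:**
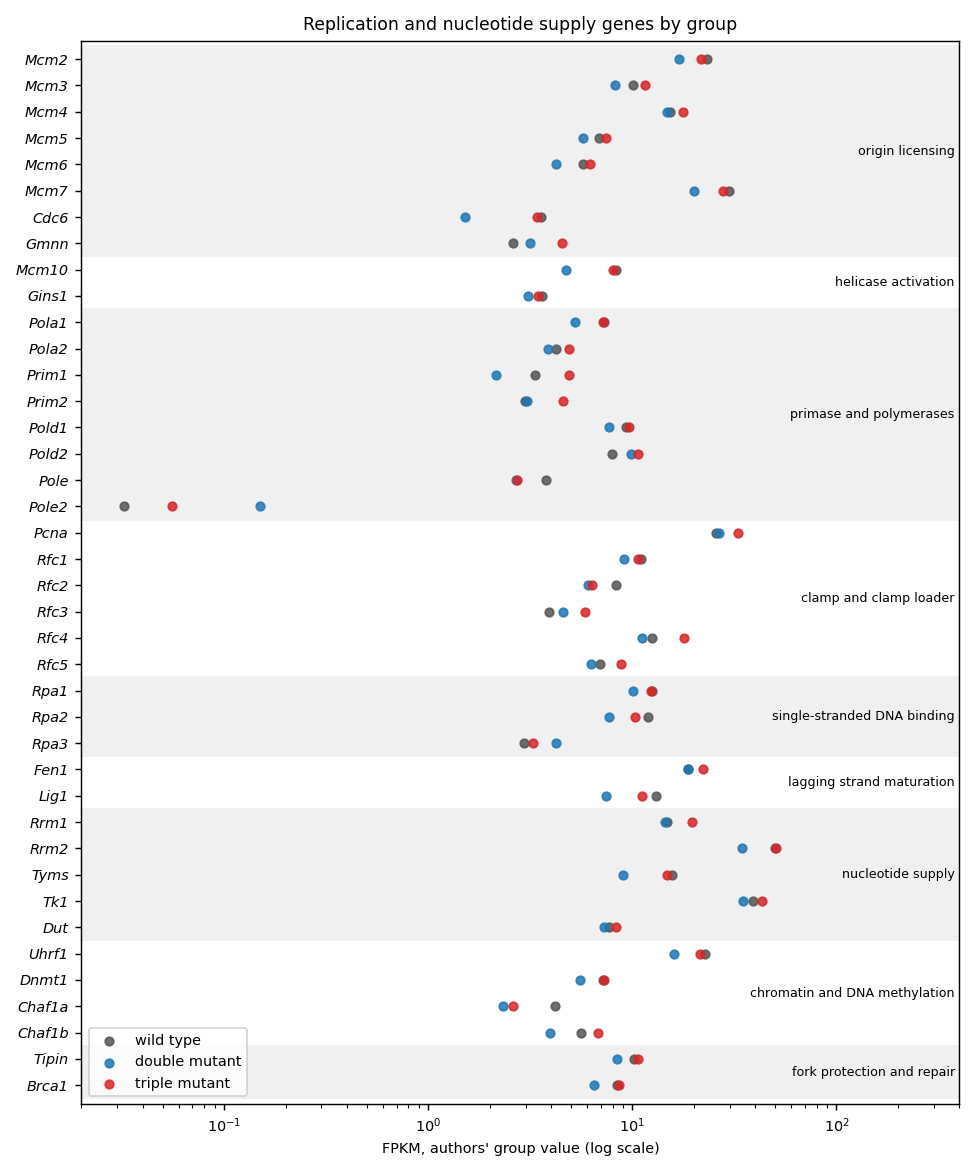
FPKM of the 40 genes with an estimate (log axis), grouped by role, with 1 point for each group and no error bars because the file holds 1 value per gene and group. The double mutant point of Cdc6 sits at 1.52, against 3.56 in wild type and 3.40 in triple mutants, and Pole2 lies apart at the low end.

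Triple against double mutant is the contrast that adds the Nkx2-5 modifier. Replication and supply genes stood higher in the triple mutant: 38 of 39 tested genes had a positive log2 fold change, with a median of 0.39, where 49.8% of all genes tested were positive and their median was 0.00 (-0.00108). Of the 39, 4 rose and none fell in the authors' deposited table, namely Cdc6, Prim1, Tyms and Rrm2. Among all 12786 genes tested, 1.25% were called, 0.704% higher and 0.547% lower. At an unadjusted p under 0.05 the count was 16 of 39, each of them higher, where 8.45% of all genes passed, 4.21% higher and 4.25% lower. At a q-value under 0.1, the mark the authors used, 7 were called, each higher (with Mcm3, Mcm6 and Rrm1), where 1.98% of all genes were called, 1.02% higher and 0.962% lower. The quartiles of the 39 log2 fold changes were 0.27 and 0.54, and those of all genes tested -0.16 and 0.17. The deposited p-values are lower than the deposited statistics give as normal deviates in 99.7% of tested rows, and read that way none of the 39 was called in any comparison and 18 rows instead of 704 were called over the whole table.

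The double mutant against wild type, which the design text does not name, gave 3 genes that fell and none that rose, namely Cdc6, Tyms and Rrm2. Of all 13034 genes tested there, 2.65% were called, 1.89% higher and 0.767% lower. The median log2 fold change over the 39 was -0.29, against -0.00298 over all genes tested, and 7 were positive, or 17.9% against 49.5%. At an unadjusted p under 0.05 the count was 13, each of them lower, against a background of 16.3%, 6.86% lower and 9.46% higher. At a q-value under 0.1 it was 5 (with Mcm2 and Rpa2), each lower, where 4.41% of all genes were called, 2.98% higher and 1.43% lower. This comparison and the previous one share the double mutant samples, so their values are given side by side and are not independent of each other.

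The triple mutant against wild type asks how the hearts that model the disease differ from normal ones. None of the 39 was called by the authors' Cuffdiff test, where 1.52% of all 12986 genes tested were, 1.16% higher and 0.362% lower. At a q-value under 0.1 none was called either, where 2.75% of all genes were, 1.97% higher and 0.778% lower. The median log2 fold change was 0.06, against -0.00258 over all genes tested, and 24 of the 39 were positive. With shared loci left out that median was 0.11. At an unadjusted p under 0.05 there were 5 genes, or 12.8%, where the background was 12.1%, 7.43% higher and 4.71% lower. These were Rrm1, Prim2, Gmnn and Pcna on the higher side and Chaf1a on the lower.

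Genes that differ by sex also differed between the groups, while the labels give no sex. The median log2 fold change of 4 Y-linked genes was 1.53 between double mutant and wild type, -0.48 between triple and double mutant and 1.05 between triple mutant and wild type. By the authors' Cuffdiff test, Ddx3y and Uty were called between double mutant and wild type (both q = 0.0066). Eif2s3y and Kdm5d were not (q = 0.752 and 0.777). None of the 4 was called between the mutants (lowest q = 0.077, Ddx3y), and Ddx3y alone between triple mutant and wild type (q = 0.0066). Xist, the RNA that silences an X chromosome in females, had an FPKM of 1.21 in double and 88.2 in triple mutants (log2 fold change 6.18, SE 1.57, q = 0.0066 in the authors' deposited table), in a locus shared with its antisense gene Tsix. In wild type Xist exceeded the fragment limit and has no estimate. Xist was thus low in the double mutant, the group in which Cdc6, Tyms and Rrm2 were low, and genotype and sex cannot be told apart in these comparisons.

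**Figure D2:**
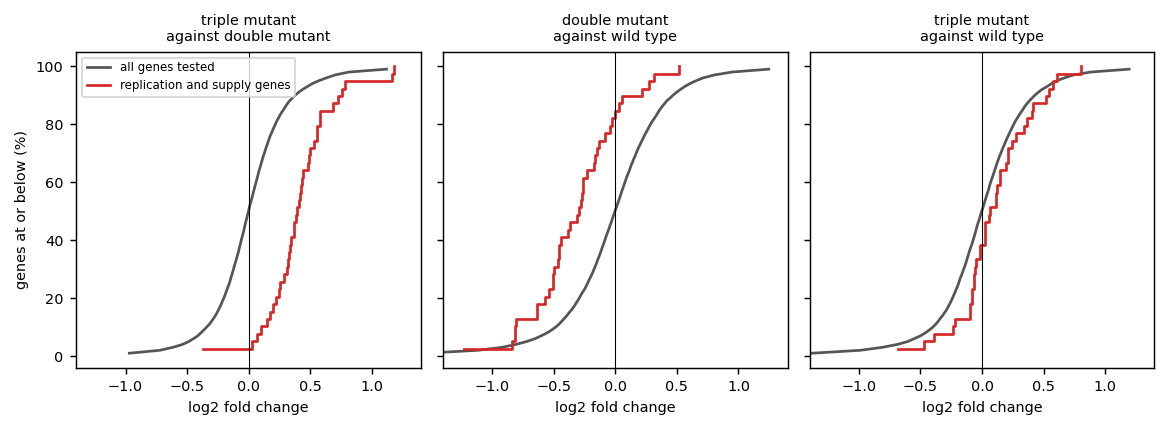
Share of genes at or below each log2 fold change, for the 39 tested replication and supply genes (red steps) and all genes tested (grey line, from the first to the 99th percentile), in 3 panels for the 3 comparisons. The red steps lie to the right of the grey line for triple against double mutant (median 0.39), to the left for double mutant against wild type (median -0.29), and close to it for triple mutant against wild type (median 0.06).

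The promoter sequences of the 4 called genes are printed because E2F factors and the CCAAT-binding factor NF-Y are known to act on many promoters of this pathway. They are RefSeq sequences of the GRCm38.p6 build, from 250 bases before to 50 bases after the gene's start, read 5′ to 3′ on the gene's strand. Capitals mark matches, on either strand, to an E2F site (TTTCCCGC, TTTCGCGC, TTTGGCGC or TTTGCCGC), a CCAAT box (CCAAT) or a cell cycle homology region (TTTGAA or TTCGAA). Matches to different motifs can share end bases, as in Mcm7, where a CCAAT box starts on the last base of an E2F match.
Cdc6, chr11:98907901-98908200, plus strand: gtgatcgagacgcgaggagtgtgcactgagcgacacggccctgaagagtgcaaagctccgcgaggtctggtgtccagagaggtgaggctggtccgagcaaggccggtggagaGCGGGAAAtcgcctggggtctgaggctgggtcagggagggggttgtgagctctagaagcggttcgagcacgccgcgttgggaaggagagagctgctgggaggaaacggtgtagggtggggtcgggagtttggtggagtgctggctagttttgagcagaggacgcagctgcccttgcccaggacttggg
Tyms, chr5:30073576-30073875, minus strand: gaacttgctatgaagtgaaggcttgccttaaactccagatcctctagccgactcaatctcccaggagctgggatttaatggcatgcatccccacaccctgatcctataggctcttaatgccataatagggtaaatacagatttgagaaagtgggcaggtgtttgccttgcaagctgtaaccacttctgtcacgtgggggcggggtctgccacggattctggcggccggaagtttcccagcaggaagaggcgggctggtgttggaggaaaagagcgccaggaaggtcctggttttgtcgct
Prim1, chr10:128014965-128015264, plus strand: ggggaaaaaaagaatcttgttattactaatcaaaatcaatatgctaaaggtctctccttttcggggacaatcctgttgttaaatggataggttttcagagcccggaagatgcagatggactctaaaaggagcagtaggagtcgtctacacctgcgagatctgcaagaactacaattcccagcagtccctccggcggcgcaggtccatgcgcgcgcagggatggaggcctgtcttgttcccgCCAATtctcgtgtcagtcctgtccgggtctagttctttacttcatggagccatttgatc
Rrm2, chr12:24708004-24708303, plus strand: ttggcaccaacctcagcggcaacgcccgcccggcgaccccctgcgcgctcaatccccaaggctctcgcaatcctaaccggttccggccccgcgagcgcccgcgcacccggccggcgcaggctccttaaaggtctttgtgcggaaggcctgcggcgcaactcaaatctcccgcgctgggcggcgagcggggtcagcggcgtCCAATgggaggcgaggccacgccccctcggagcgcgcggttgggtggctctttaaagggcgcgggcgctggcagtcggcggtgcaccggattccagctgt
Cdc6 holds 1 E2F match, 138 bases before the start. Prim1 and Rrm2 hold 1 CCAAT box each and no E2F match. Tyms shows none of the 3 motifs in this window. An exact match is a description of the letters, and its absence says nothing about which factors bind.

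The largest fall among the 39 was that of a licensing gene. Cdc6 (ENSMUSG00000017499, mm9 chromosome 11, 98769115 to 98785254), the ATPase that recruits the helicase to origins, had an FPKM of 3.56 in wild type, 1.52 in double mutants and 3.40 in triple mutants. Its level was thus low in the double mutant and nearly alike in the other groups. In the authors' deposited table Cdc6 fell 2.35-fold in the double mutant against wild type (log2 fold change -1.23, SE 0.58, q = 0.0114). It rose 2.24-fold in the triple against the double mutant in the authors' deposited table (log2 fold change 1.16, SE 0.52, q = 0.0066). For triple mutant against wild type the q-value of Cdc6 in the authors' deposited table was 0.973.

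The 6 helicase subunits were ordered alike in each group, with Mcm7 highest and Mcm6 lowest. Mcm7, in a locus of 7 genes that includes 3 microRNAs in its introns, stood at 29.9 in wild type, 20.1 in double and 27.9 in triple mutants. Mcm6 stood at 5.72, 4.21 and 6.18 in the same order. The ratio of the highest to the lowest subunit was 5.22 in wild type, 4.76 in double and 4.52 in triple mutants. None of the 6 passed the threshold in any comparison in the authors' deposited table. Mcm3 came nearest, with 10.1 in wild type, 8.25 in double and 11.6 in triple mutants, and a q-value of 0.0575 for triple against double mutant in the authors' deposited table. For Mcm2 the FPKM values were 23.3, 16.9 and 21.8, with a q-value of 0.0641 between double mutant and wild type in the authors' deposited table. Mcm6 had q = 0.077 for triple against double mutant in the authors' deposited table. Mcm4 differed least among the 6 between double and triple mutant (14.8 and 17.6, q = 0.505 in the authors' deposited table), and Mcm5 had 6.84, 5.71 and 7.46. Geminin, which blocks Cdt1, took another order: Gmnn stood at 2.59 in wild type, 3.14 in double and 4.53 in triple mutants. Its log2 fold change of 0.80 (SE 0.63) for triple mutant against wild type was the largest of the 39 in that comparison and did not pass (q = 0.178 in the authors' deposited table).

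The E2F matches of the licensing genes are shown with their surroundings, 28 bases each, because this role had the most genes with a match. Capitals mark the match, on the gene's strand.
Mcm3, chr1:20820276-20820303, minus strand: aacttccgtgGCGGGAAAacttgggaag
Mcm3, chr1:20820263-20820290, minus strand: ggaaaacttgggaagtTTTGGCGCcaag
Mcm5, chr8:75109348-75109375, plus strand: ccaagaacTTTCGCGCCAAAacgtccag
Mcm6, chr1:128359796-128359823, minus strand: cgtatgctTTTGGCGCGAAAagtgcgtg
Mcm6, chr1:128359735-128359762, minus strand: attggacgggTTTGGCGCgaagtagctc
Mcm7, chr5:138172031-138172058, minus strand: atttcgaaccGCGGGAAAcagggtgtcc
Mcm7, chr5:138171850-138171877, minus strand: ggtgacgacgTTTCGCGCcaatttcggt
Cdc6, chr11:98908003-98908030, plus strand: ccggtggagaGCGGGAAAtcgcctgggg
Cdt1, chr8:122568037-122568064, plus strand: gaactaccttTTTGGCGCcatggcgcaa
In Mcm5 and in the first Mcm6 stretch, 2 matches on opposite strands overlap to form 1 run of 12 bases. Mcm3, Mcm6 and Mcm7 each held 2 separate stretches. The log2 fold changes of these helicase genes for triple against double mutant were 0.49 for Mcm3, 0.39 for Mcm5, 0.55 for Mcm6 and 0.48 for Mcm7, with standard errors of 0.27, 0.30, 0.30 and 0.61. Without an E2F match in its window, Mcm2 had 0.37 (SE 0.24), so these values lie within their errors of each other.

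Of the genes that activate the helicase, Mcm10, which helps to switch the loaded helicase on, had an FPKM of 8.31 in wild type, 4.75 in double and 8.05 in triple mutants. The double mutant value was again the low one, and the q-values in the authors' deposited table were 0.168 (double mutant, wild type) and 0.213 (triple, double mutant). Gins1, a subunit of the GINS complex that joins Cdc45 and the helicase, had 3.61, 3.07 and 3.46, and none of its comparisons passed.

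Primase and its polymerase partners gave 1 call. Prim1 (ENSMUSG00000025395, mm9 chromosome 10, 127452228 to 127467093), the catalytic primase subunit, had an FPKM of 3.34 in wild type, 2.15 in double mutants and 4.87 in triple mutants. It rose 2.27-fold in the triple against the double mutant in the authors' deposited table (log2 fold change 1.18, SE 0.60, q = 0.0214), the largest value of the 39 there. Against wild type, Prim1 had q = 0.427 in double and 0.463 in triple mutants in the authors' deposited table. Prim2, the regulatory primase subunit, was level in wild type and double mutant (2.99 and 3.06) and stood at 4.57 in the triple mutant, with q = 0.133 relative to wild type and 0.17 relative to the double mutant in the authors' deposited table.

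The polymerase subunits gave no call. Pola1, the catalytic subunit of the priming polymerase alpha, had 7.24 in wild type, 5.26 in double and 7.16 in triple mutants, in a locus of 3 genes, and Pola2 had 4.24, 3.87 and 4.92. For the lagging strand polymerase delta, Pold1 stood at 9.26, 7.71 and 9.67. Pold2, the subunit that binds the catalytic one, had 7.95, 9.89 and 10.6 and thus was lowest in wild type, with a log2 fold change of 0.31 for double mutant minus wild type (q = 0.768 in the authors' deposited table). Pole, the leading strand polymerase, stood at 3.78 in wild type and at 2.68 and 2.73 in the mutants, in a locus of 4 genes, with a log2 fold change of -0.47 for triple mutant minus wild type (q = 0.685 in the authors' deposited table). None of these 5 was called. The standard error of Pole was 0.64 between triple mutant and wild type, wider than its difference there.

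The sliding clamp and its loader held no call. Pcna, the clamp, had an FPKM of 25.7 in wild type, 26.7 in double and 33.1 in triple mutants, so wild type and double mutant were nearly level. Its unadjusted p for triple mutant against wild type was 0.0307 and its q-value 0.325 in the authors' deposited table. Of the 5 loader subunits, Rfc4 was the highest in each group (12.5, 11.1 and 17.9) and Rfc3 the lowest (3.93, 4.56 and 5.87). For Rfc3 the log2 fold change of triple mutant over wild type was 0.58 (SE 0.65), with q = 0.515 in the authors' deposited table. Rfc4 lies in a locus of 7 genes with the translation factor gene Eif4a2, and its log2 fold change for triple against double mutant had a standard error of 1.85, the widest of the 39. Rfc2 stood at 8.34 in wild type, 6.08 in double and 6.36 in triple mutants. It was thus higher in wild type than in either mutant, with q = 0.31 and q = 0.409 in the authors' deposited table. Rfc1, the large subunit, had 11.0, 9.13 and 10.6, and Rfc5, in a locus shared with Wsb2, had 6.97, 6.27 and 8.85.

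Replication protein A coats the single strands that the helicase opens. Its large subunit Rpa1 stood at 12.5 in wild type, 10.1 in double and 12.3 in triple mutants, and Rpa2 at 12.0, 7.70 and 10.3. For Rpa2 the q-value of the double mutant against wild type was 0.0719 in the authors' deposited table. Rpa3, the smallest subunit, went against the other subunits: it had 2.96 in wild type, 4.23 in double and 3.28 in triple mutants. Its log2 fold change for triple against double mutant, -0.37 (SE 0.63), was the negative one among the 39 and did not pass (q = 0.793 in the authors' deposited table). Of the enzymes that join lagging strand fragments, the flap nuclease Fen1 (a locus of 3 genes) was level in wild type and double mutant at 18.8 and stood at 22.2 in the triple mutant. Lig1, the ligase of the lagging strand, stood at 13.1, 7.42 and 11.1 in a locus shared with 1 other gene, with a log2 fold change of -0.81 and q = 0.398 for the double mutant against wild type in the authors' deposited table.

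**Figure D3:**
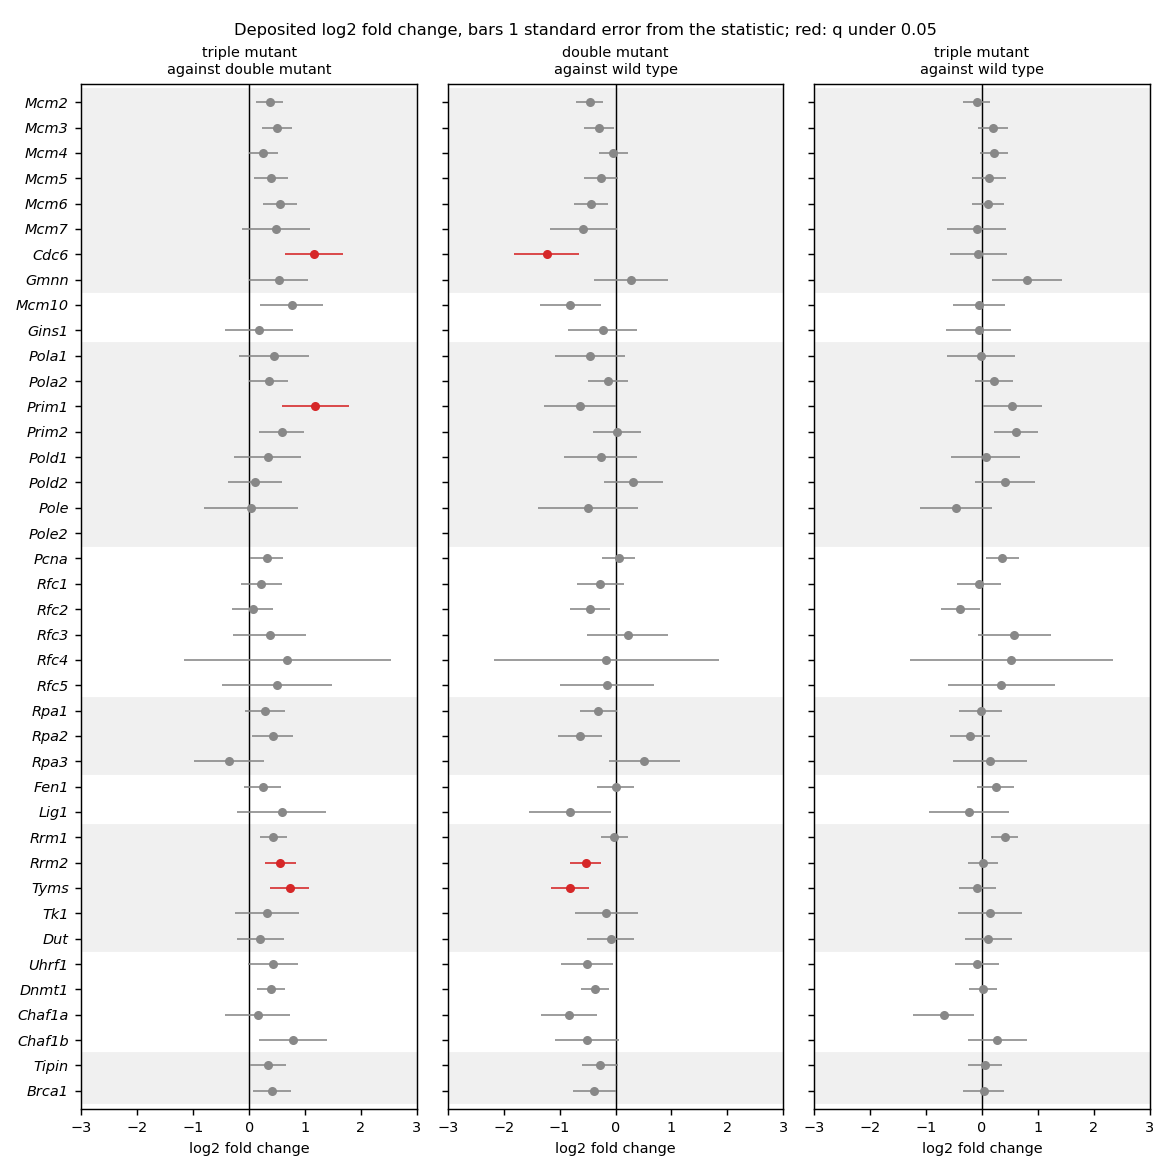
Deposited log2 fold change of each tested gene in 3 panels for the 3 comparisons, with bars of 1 standard error implied by the authors' statistic and red points for a q-value under 0.05. Cdc6, Tyms and Rrm2 are red on the right side of 0 for triple against double mutant and on the left for double mutant against wild type, Prim1 is red in the first panel, and no point is red in the third. The row of Pole2 is empty because it was not tested.

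Nucleotide supply held 2 of the 4 calls. Tyms (ENSMUSG00000025747, mm9 chromosome 5, 30384742 to 30400157, a locus shared with Gm17448), the thymidylate synthase, had an FPKM of 15.7 in wild type, 8.96 in double mutants and 14.8 in triple mutants. In the authors' deposited table it fell 1.75-fold in the double mutant against wild type (log2 fold change -0.81, SE 0.34, q = 0.0066). Tyms rose 1.66-fold in the triple against the double mutant in the authors' deposited table (log2 fold change 0.73, SE 0.35, q = 0.0184). The triple mutant and wild type were close, with q = 0.948 in the authors' deposited table.

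Ribonucleotide reductase turns ribonucleotides into deoxyribonucleotides, and the protein level of its small subunit rises and falls with the cell cycle. Rrm2 (ENSMUSG00000020649, mm9 chromosome 12, 25393106 to 25399011) stood at 49.98 in wild type, 34.5 in double mutants and 50.7 in triple mutants. It fell 1.45-fold in the double mutant against wild type in the authors' deposited table (log2 fold change -0.54, SE 0.27, q = 0.0356). In the triple against the double mutant Rrm2 rose 1.47-fold in the authors' deposited table (log2 fold change 0.56, SE 0.27, q = 0.0321). The large subunit Rrm1 followed another order, with 14.7 in wild type, 14.5 in double and 19.5 in triple mutants. Wild type and double mutant were level for Rrm1, and its q-values in the authors' deposited table were 0.0781 for triple against double mutant and 0.102 for triple mutant against wild type. Tk1, the cytosolic thymidine kinase that salvages thymidine, had 39.0, 34.6 and 43.2 in a locus of 4 genes. Dut, which keeps uracil out of DNA by breaking down dUTP, had 7.72, 7.29 and 8.36. Neither Tk1 nor Dut was called in any comparison.

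Among the chromatin genes, Uhrf1, which brings the maintenance methyltransferase to newly copied DNA, had an FPKM of 22.7 in wild type, 16.0 in double and 21.5 in triple mutants. Dnmt1, that methyltransferase, stood at 7.14, 5.54 and 7.26, with q = 0.21 between double mutant and wild type and 0.169 between the mutants in the authors' deposited table. The subunits of chromatin assembly factor 1, which places histones behind the fork, differed in their pattern. Chaf1b stood at 5.58, 3.93 and 6.75, low in the double mutant alone, with a log2 fold change of 0.78 (SE 0.60) for triple against double mutant (q = 0.17 in the authors' deposited table). Chaf1a (a locus shared with Ubxn6) stood at 4.17 in wild type and at 2.34 and 2.59 in the mutants. For Chaf1a the log2 fold change of triple mutant against wild type, -0.68 (SE 0.55), was the lowest of the 39 there, with q = 0.342 in the authors' deposited table. Tipin, which steadies stalled forks, had 10.2, 8.45 and 10.7 in a locus shared with a small RNA gene, and the repair gene Brca1 had 8.45, 6.48 and 8.61. Neither was called.

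**Figure D4:**
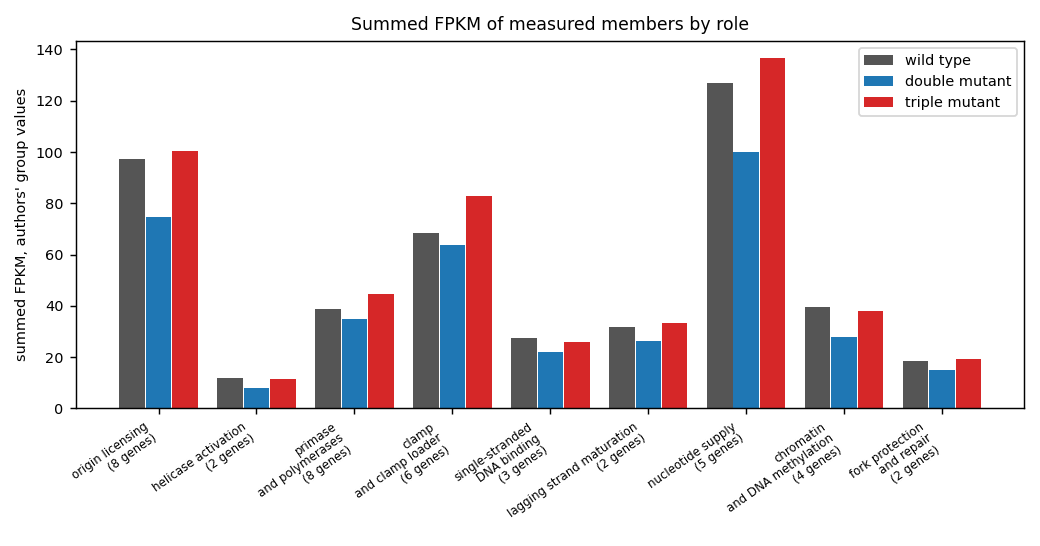
Summed FPKM of the genes with an estimate in each of 9 roles, with 1 bar per group from 0 and no error bars because the file holds 1 value per gene and group. Nucleotide supply has the tallest bars, at 127 for wild type, 99.9 for the double and 137 for the triple mutant, and licensing comes next at 97.2, 74.6 and 100.5.

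Of the 42 genes, 34 had a promoter in the RefSeq table by symbol. The others were Mcm4, Gmnn, Gins1, Gins2, Prim2, Pole, Rfc2 and Tipin. An E2F match was held by 13 of the 34 (38.2%), against 2.6% of the 27025 gene symbols of the table, counting a gene once if any of its windows held it. A CCAAT box was held by 21 (61.8%, against 41.1%) and a cell cycle homology region by 6 (17.6%, against 21.7%). The genes with an E2F match were Mcm3, Mcm5, Mcm6, Mcm7, Cdc6, Cdt1, Pola1, Pold1, Pole2, Rfc3, Lig1, Uhrf1 and Dnmt1. Among the 11 of these that were tested, the median log2 fold change was 0.44 between triple and double mutant and -0.44 between double mutant and wild type. For the 21 tested genes with a promoter and no E2F match the medians were 0.37 and -0.27. Between triple mutant and wild type the medians were 0.02 with and 0.15 without an E2F match. Genes with a CCAAT box had medians of 0.41 between triple and double mutant and -0.38 between double mutant and wild type. Those without the box had 0.50 and -0.17. These medians describe the lists, and no test of their differences was made.

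Other genes of the pathway, from lists that hold none of the 42, were counted in the same way. Of 40 other replication factors, 37 were tested for triple against double mutant, 30 of them with a positive log2 fold change and a median of 0.27. None was called by the authors' Cuffdiff test, where 1.25% of all genes were. At an unadjusted p under 0.05 there were 9 (24.3%), against 8.45% of all genes. For the double mutant against wild type 35 were tested, 9 positive with a median of -0.20. None was called, where 2.65% of all genes were, and 8 (22.9%) had an unadjusted p under 0.05, against 16.3%. For triple mutant against wild type the median was 0.04. None of 37 was called, where 1.52% of all genes were, and 3 (8.11%) were at that p, against 12.1%. Asf1b, a histone chaperone, had an FPKM of 8.06 in wild type, 5.09 in double and 7.18 in triple mutants. Cdc45, which forms the active helicase with GINS and Mcm2 to Mcm7, had 1.37, 1.31 and 2.41 in a shared locus, with q = 0.695 for triple against double mutant in the authors' deposited table. Rnaseh2c, a subunit of the nuclease that removes ribonucleotides from DNA, had 23.8, 30.6 and 36.3, with q = 0.0794 for triple mutant against wild type in the authors' deposited table, in a shared locus.

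Of 27 other genes of nucleotide supply 26 were tested. Their median log2 fold change was 0.18 between triple and double mutant (21 positive), -0.03 between double mutant and wild type (13 positive) and 0.13 between triple mutant and wild type (20 positive). None was called in the first 2 comparisons by the authors' Cuffdiff test, where 1.25% and 2.65% of all genes were. At an unadjusted p under 0.05 there were 3 (11.5%, against 8.45% of all genes) and 2 (7.69%, against 16.3%). For triple mutant against wild type there were 4 at that p (15.4%, against 12.1%), and 1.52% of all genes were called. In the third, Adsl, an enzyme of purine synthesis in a shared locus, rose 1.65-fold, with q = 0.0398 in the authors' deposited table, from an FPKM of 12.3 in wild type to 20.2 in triple mutants, with 16.5 in the double mutant. Ctps, which makes CTP, stood at 9.84, 7.27 and 10.3, with q = 0.158 for triple against double mutant in the authors' deposited table. Its paralog Ctps2 stood at 5.52, 9.41 and 8.001 in a shared locus, with q = 0.51 for the double mutant against wild type in the authors' deposited table. Samhd1, which breaks down deoxynucleotides, had 7.98, 6.77 and 9.36.

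Of 12 reference genes of proliferation, 11 were tested for triple against double mutant, with 2 called higher and 10 positive, and a median of 0.48. Among all genes tested there, 0.704% were called higher. An unadjusted p under 0.05 was reached by 4 of the 11 (36.4%), each higher, against 8.45% of all genes. The mitotic cyclin Ccnb1 had 26.9, 17.6 and 31.4 and rose 1.79-fold (q = 0.0066 in the authors' deposited table). Ccna2, the cyclin of S phase and G2, had 84.4, 63.7 and 98.3 and rose 1.54-fold (q = 0.0244 in the authors' deposited table). For the double mutant against wild type the median was -0.32. None of 12 was called by the authors' Cuffdiff test, where 2.65% of all genes were. At an unadjusted p under 0.05 there were 3 (25%, against 16.3% of all genes). The triple mutant against wild type had a median of 0.13 over 11 genes. None was called, where 1.52% of all genes were, and 1 was at that p (9.09%, against 12.1%). Ccne1, the cyclin of S phase entry, had an FPKM of 4.67 in wild type, 2.72 in double and 3.96 in triple mutants. Cdk1, the mitotic kinase, had 13.4, 8.70 and 13.6, and the E2F repressors E2f7 and E2f8 had 14.4, 11.5 and 9.55, and 10.4, 9.89 and 13.2. None of these 4 was called.

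Marker genes of other cell types were summed in the same groups. Of 10 cardiomyocyte markers 9 are listed with a failed estimate for too many fragments in at least 1 group. The other, Nppa, the atrial natriuretic peptide gene, had 919, 505 and 829 in wild type, double and triple mutant. Nppa was called lower in the double mutant against wild type, where 0.767% of all genes were called lower. It was called higher in the triple against the double mutant, where 0.704% were called higher (both q = 0.0066 in the authors' deposited table). This 1 gene gives no measure of the share of cardiomyocytes. Of 10 fibroblast markers, Col3a1 and Postn had failed estimates in at least 1 group and are left out of the sums. Postn is listed at 255 in wild type. The 8 tested fibroblast markers summed to an FPKM of 605 in wild type, 693 in double and 564 in triple mutants, with Col1a1 (183, 218 and 163) the highest of these. Of the 8, 0 were positive for triple against double mutant (median log2 fold change -0.29), where 49.8% of all genes were. Between double mutant and wild type 8 were positive, where 49.5% of all genes were, but the median was only 0.08. None was called, where 1.25% of all genes were for triple against double mutant. There, 5 (62.5%) were lower at an unadjusted p under 0.05, against 4.25% of all genes. The 10 endothelial markers summed to 685, 664 and 588, and Cdh5 (204, 218 and 188) was the highest. For triple against double mutant 1 of 10 was positive. Between double mutant and wild type 3 of 10 were positive, Cdh5 among them, with a median of -0.13. The 9 macrophage markers found summed to 46.2, 47.5 and 45.3, led by the complement gene C1qa. The sum of the 10 lymphocyte markers was 2.39, 1.93 and 1.86, with each gene under an FPKM of 1 in all groups and the T cell genes Cd3e and Cd3g at 0 in wild type. Of 10 erythroid precursor markers 5 were under 1 in all groups, and Klf1, Rhag and Hemgn were at 0 in 1 group each. The highest was Tfrc, the transferrin receptor that dividing cells of other kinds also carry (204, 263 and 194). The next, Alas2, took another order (23.1, 16.1 and 16.5). Of the 4 tested, 2 were higher and 2 lower in the double mutant against wild type, and likewise for triple against double mutant. For triple mutant against wild type 0 of these 4 were positive, with a median of -0.25. There 2 of 10 endothelial (median -0.29), 1 of 8 fibroblast (-0.12) and 4 of 7 tested macrophage markers (0.07) were positive, where 49.6% of all genes were. None of these markers was called in that comparison, where 1.52% of all genes were. The part of these marker genes in the differences of the replication genes was not tested.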

How the data were processed

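The authors deposited a Cuffdiff table with 1 FPKM per gene and group and, for each of 3 comparisons, a test score (its statistic), log2 fold change, p-value and q-value. The submitters' processing notes name the mm9 build and the tools Cuffdiff 2.2.1, Cufflinks 2.2.1, STAR 2.5.2 and CASAVA 1.8. Annotation, settings and depth are not known here. Recomputed log2 ratios without pseudocount differed from the deposited ones by at most 4.72e-05, and q-values recomputed by Benjamini-Hochberg across the comparisons jointly by at most 5.26e-07. A q-value under 0.05 was the threshold, and 0.1 is where the authors' mark stops. The lowest p-value is 5e-05, so top genes tie.

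Groups came from the labels. Shared loci are those with identical coordinates for several genes. Starts in the file were raised by 1. With no values per sample, no test across samples was run. The 42 genes, the other lists and the alternatives were chosen with earlier results of these data known. All 42 were accounted for, with fuller values for those called, the 3 highest and lowest log2 fold changes per comparison, the highest and lowest FPKM per role, and failed or shared loci. Other lists were named by calls and the 2 largest differences, and markers by the highest wild type FPKM. A gene of the other lists is not reported here. Python 3.11.15 with pandas 2.3.3 was used. The adjustment and motif search were tested on simulated data.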

Additional observations from a re-analysis of the deposited data

How the results depend on the processing

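No paired analysis was possible because the file holds 1 value per gene and group, and no replicate was left out for the same reason. At a q-value under 0.1 the called genes were 7 for triple against double mutant (adding Mcm3, Mcm6 and Rrm1), 5 for the double mutant against wild type (adding Mcm2 and Rpa2), none for triple mutant against wild type, and 8 instead of 3 calls in the other pathway lists. Recomputing q-values within a comparison also gave 5 for the double mutant against wild type, again with Mcm2 and Rpa2. When an FPKM of 5 or more was required in at least 1 of the groups compared, which leaves out Cdc6 and Prim1, 3 genes were called for triple against double mutant, namely Rrm2, Tyms and Mcm3, and 2 for the double mutant against wild type. The deposited q-value of Mcm3 is 0.0575, so its call here rests on q-values adjusted anew. Leaving out shared loci removed Tyms and so gave 3 and 2 as well. In 99.7% of tested rows the deposited p-value was lower than the deposited statistic gives when read as a normal deviate. That reading, chosen after seeing the data, left 0 calls in each comparison among the replication genes and 18 instead of 704 over the whole table, and the cause was not tested. Under a pseudocount of 1, the FPKM minimum, centring on all genes, inclusion of Pole2 and omission of shared loci, the median log2 fold change ran from 0.35 to 0.40 for triple against double mutant and from -0.31 to -0.26 between double mutant and wild type. Between triple mutant and wild type it ran from 0.06 to 0.11, the highest (0.11) without shared loci. The count with a cell cycle homology region was 2 instead of 6 in a window from 150 bases before the start, where all genes held it less often too (13.7%).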
